A study of Caenorhabditis elegans with 3 samples.

Results

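The 10 genes here encode proteins that attach the epidermis of Caenorhabditis elegans to cuticle and muscle, and intermediate filament proteins of epidermis and gut. They were taken by symbol (vab-10, mup-4, mua-3, let-805, ifa-1, ifa-2, ifb-1, ifb-2, ifc-2 and ifp-1) from probes assigned to exactly 1 gene, and all 10 had a value on every array, among 15129 genes tested. The gene ifa-2 is filed as mua-6 in the probe and gene tables. That the names belong to the same gene is background knowledge, since neither table pairs them, and the other 9 were found under the listed symbol. The genes are covered by 14 probes, with 3 for vab-10, 2 each for mua-3 and let-805 and 1 for each of the rest. By the RefSeq gene table of assembly WBcel235, vab-10 is on chromosome I, ifb-1 and ifb-2 are on II with 3 protein-coding genes between them, mup-4, mua-3 and let-805 are on III, and ifa-1, mua-6, ifc-2 and ifp-1 are on X.

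Late L3 hermaphrodites (L3 is the larval stage before L4, and the labels call this group TP02), in preps 1, 2 and 3, were each hybridised on a 2-colour array against a wild-type (wt) mixed reference. The labels give no genotype, treatment or age in hours for the larvae, do not say which stages or sexes the reference pools, and do not say whether the preps were separate cultures, so each p-value reflects variation among 3 samples that may share a culture. Every prep was on its own array, and prep and array cannot be told apart. Values are log2 ratios with the median of each array set to 0. The ratio is read as larvae over reference, the likely direction from the order of words in the sample descriptions. The labels name the reference as the first channel and do not state the numerator, and with the opposite numerator every sign below would turn.

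In body wall epidermis, fibrous organelles, the nematode counterpart of hemidesmosomes, pass muscle tension through the cell to the cuticle. Receptors on the cuticle side (MUP-4, MUA-3) and on the muscle side (LET-805, myotactin) are tied by the spectraplakin VAB-10 and by filaments of an IFA protein paired with IFB-1. In the gut, a second set of filament proteins, IFB-2, IFC-2 and IFP-1 among them, forms a sheath under the lumen. Vertebrate hemidesmosomes use plectin and keratins in the corresponding places.

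Transcripts of 9 of the 10 genes were higher in late L3 larvae than in the mixed reference, and the mean of the tenth, mua-3, was positive but did not pass. Mean log2 ratios ran between 0.79 for mua-3 and 2.38 for mup-4, with a median of 1.21 over the 10, against -0.0027 over all genes tested. A limma adjusted p under 0.05 was the threshold, which 11.4% of all genes tested passed on the higher side and 11.9% on the lower. The ratio was positive in every prep for 9 of the 10 genes, against 26.8% of all genes. It exceeded 1 in every prep for 4 of them, namely mup-4, ifb-2, ifc-2 and ifp-1, against 3.16% of all genes. The 10 genes were picked with results of these arrays known, so the counts describe them and are not independent evidence of a shared direction. In RNA of whole larvae, a larger share of cells of a type and more RNA per cell cannot be told apart.

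**Figure D1:**
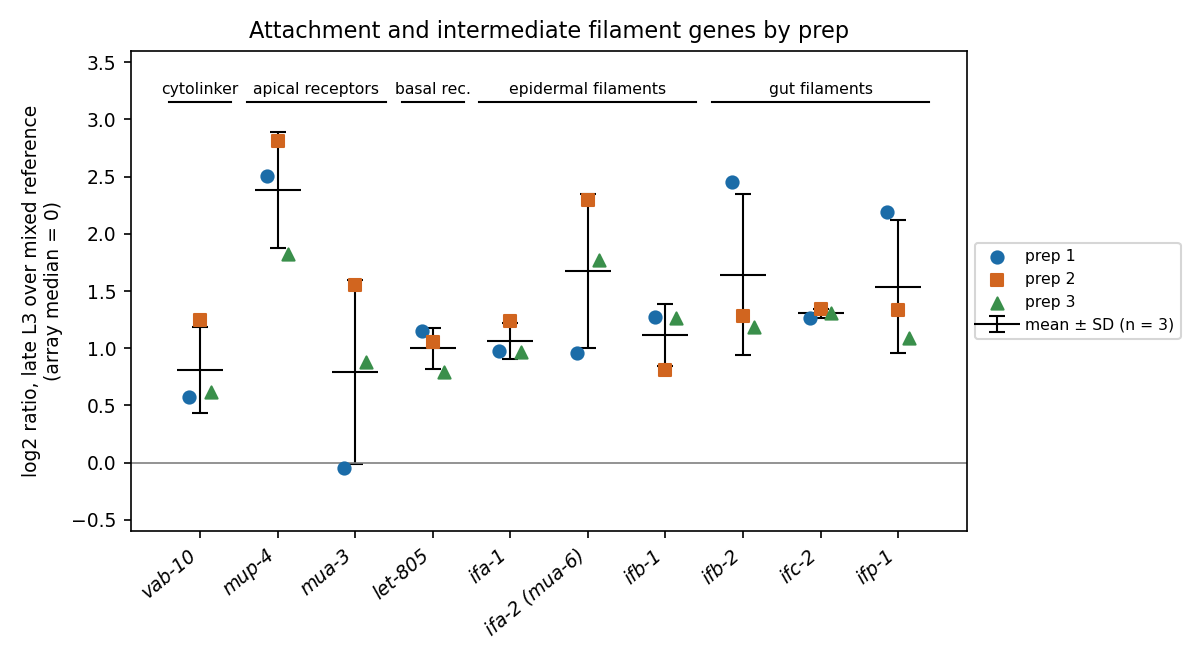
Log2 ratio of late L3 over the mixed reference for each of the 10 genes, grouped by the role of the protein. Points are preps 1, 2 and 3 and bars are the mean ± SD (n = 3). The gene mup-4 is highest in each prep, and mua-3 in prep 1, at -0.05, is the only value below 0.

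Of the cuticle-side receptor genes, mup-4 was higher and mua-3 did not pass. The gene mup-4, which encodes a transmembrane protein at the apical face of fibrous organelles, had log2 ratios of 2.50, 2.81 and 1.82 in preps 1, 2 and 3. It had the highest ratio of the 10 genes in each prep, narrowly in prep 1, where ifb-2 was at 2.45, and in prep 3, where mua-6 was at 1.77. The mean of mup-4 was 2.38 ± 0.51 (SD, n = 3), 5.20-fold with a 95% interval of 3.57 to 7.58, and the limma adjusted p was 0.000111. The related gene mua-3, required for attachment as the larva grows, was at -0.05, 1.55 and 0.88 in the same order, a mean of 0.79 ± 0.80 (SD, n = 3; limma adjusted p = 0.0780). Prep 1 thus lay near the array median for mua-3, which was the lowest of the 10 genes in that prep alone, and the other preps lay well above it. Without prep 1 the mean of mua-3 was 1.22 (limma adjusted p = 0.000887), and without prep 2 it was 0.41 (limma adjusted p = 0.401). In the fit without prep 1 the p-value followed the size of the mean alone. The spread of mua-3 itself played no part there, so these p-values cannot be set side by side. The ratio of mup-4 exceeded that of mua-3 by 2.55, 1.26 and 0.95 in preps 1, 2 and 3. Differences between genes are given here as values within each array and were not tested.

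On the muscle side, let-805 varied little. This gene encodes myotactin, which keeps fibrous organelles aligned with the muscle beneath. Its ratios were 1.15, 1.05 and 0.80 in preps 1, 2 and 3, and the mean of 1.00 ± 0.18 (SD, n = 3) corresponds to 2.00-fold, with a limma adjusted p of 0.00712. The cytolinker gene vab-10 was at 0.57, 1.25 and 0.62, highest in prep 2, with a mean of 0.81 ± 0.38 (SD, n = 3) and a limma adjusted p of 0.0269. Without prep 2 the mean of vab-10 was 0.60 and its adjusted p was 0.145.

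Single probes of vab-10 gave unlike ratios, and the gene mean averages over them. In identifier order, the first probe was at 0.93, 1.80 and 1.25 in preps 1, 2 and 3. The second was at -0.27, 0.28 and -0.36, and the third at 1.06, 1.66 and 0.96. The second probe lay below both others in each prep, and below the third by nearly the same amount every time (-1.33, -1.38 and -1.32, the second minus the third), while the first minus the third differed in sign between preps (-0.14, 0.14 and 0.29). Tested alone with limma, the first and the third probe were higher (adjusted p = 0.00277 and 0.00353) and the second, with a mean of -0.12, did not pass (adjusted p = 0.753). A limma fit of within-array differences over all 471 probe pairs of genes with several probes, chosen after these values were seen, called 2.97% of the pairs. The first minus the second vab-10 probe averaged 1.44 ± 0.22 (SD, n = 3; limma adjusted p = 0.00821) and the second minus the third -1.34 ± 0.03 (SD, n = 3; limma adjusted p = 0.0101), while the first minus the third did not pass (adjusted p = 0.945). Without prep 1 the averages were 1.57 and -1.35, with adjusted p-values of 0.171 and 0.179. The platform annotation lists 3 RefSeq transcripts for the first probe, 5 for the second and 0 for the third, with 0 shared between the first and second. The locus makes VAB-10A, a plakin of fibrous organelles, and VAB-10B, a longer protein that also binds microtubules. Which of these each probe reads is not stated in the tables used here, and the part of isoforms in the difference was not tested.

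The probes of mua-3 had unlike values as well, although the annotation assigns the same 2 RefSeq transcripts to both. The first mua-3 probe was at -0.25, 2.29 and 1.89 in preps 1, 2 and 3, and the second at 0.16, 0.82 and -0.14. The gap between preps 1 and 2 was therefore much wider on the first probe, and prep 3 stood far above prep 1 there but slightly below it on the second. Tested alone, the first passed (limma adjusted p = 0.0435) and the second did not (adjusted p = 0.448). In the fit of probe pairs, the difference between the mua-3 probes (-0.41, 1.47 and 2.03 in preps 1, 2 and 3) did not pass (limma adjusted p = 0.292). Both let-805 probes passed, with means of 1.20 ± 0.24 and 0.80 ± 0.13 (SD, n = 3; limma adjusted p = 0.00299 and 0.0202). In all, 12 of the 14 probes were higher and 0 lower, against 11.4% of all probes assigned to 1 gene that were called higher. Among 428 genes with several probes, the range of probe means had a median of 0.24. The range was 1.44 for vab-10, the 6th widest, 1.03 for mua-3, the 18th widest, and 0.40 for let-805. Spot intensities were not used here, so how far each probe stood above background is unknown.

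**Figure D2:**
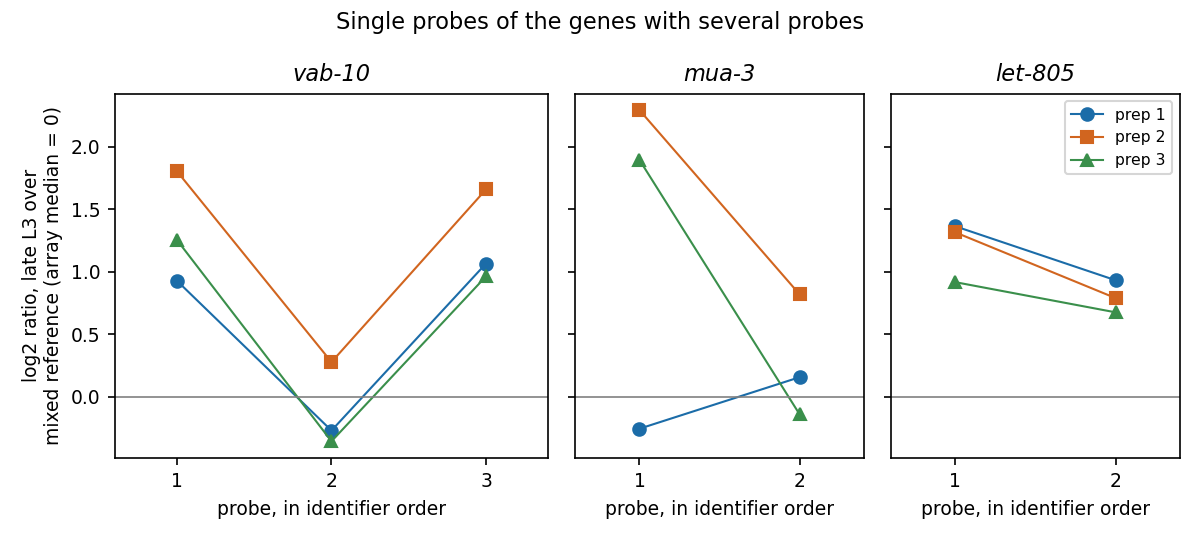
Log2 ratio of single probes, in identifier order, for vab-10, mua-3 and let-805, with a line for each prep. The second vab-10 probe lies between -0.36 and 0.28, below the others in each prep, and the first mua-3 probe spans -0.25 to 2.29.

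All 3 filament genes grouped here as epidermal were higher. The gene ifa-1, an IFA chain expressed in several epithelia including the pharynx, was at 0.97, 1.24 and 0.97 in preps 1, 2 and 3, with a mean of 1.06 ± 0.16 (SD, n = 3; limma adjusted p = 0.00497). The gene ifb-1, the obligate partner of the IFA chains, was at 1.28, 0.81 and 1.26, with a mean of 1.12 ± 0.27 (SD, n = 3; limma adjusted p = 0.00464). The ratios of ifa-1 and ifb-1 were of similar size, and their ranges overlap. The gene ifa-2 (mua-6), whose loss detaches larval muscle from the cuticle, was at 0.96, 2.29 and 1.77, with a mean of 1.67 ± 0.67 (SD, n = 3), 3.19-fold, and a limma adjusted p of 0.00159. It matched ifa-1 in prep 1 (-0.01, mua-6 minus ifa-1) and exceeded it by 1.05 and 0.80 in preps 2 and 3.

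The 3 gut filament genes among the 10 were higher as well, with the largest ratios in prep 1 for ifb-2 and ifp-1. The gene ifb-2, which encodes a main chain of the filament sheath below the gut lumen, was at 2.45, 1.28 and 1.19 in preps 1, 2 and 3, a mean of 1.64 ± 0.70 (SD, n = 3), 3.12-fold (limma adjusted p = 0.00201). Of the 10 genes, only ifb-2 had a prep over 1 log2 unit away from both others, prep 1, a position that 1.12% of all genes shared. The gene ifp-1 was at 2.19, 1.33 and 1.09, with a mean of 1.54 ± 0.58 (SD, n = 3; limma adjusted p = 0.00188). The ratios of ifb-2 and ifp-1 were close in each prep, with differences of 0.26, -0.05 and 0.10 (ifb-2 minus ifp-1). The gene ifc-2, also a chain of the gut sheath, was at 1.27, 1.34 and 1.31, the narrowest spread of the 10 genes (mean 1.31 ± 0.04, SD, n = 3; limma adjusted p = 0.00141).

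In order of mean ratio the genes ran mup-4, mua-6, ifb-2, ifp-1, ifc-2, ifb-1, ifa-1, let-805, vab-10 and mua-3. The 95% interval of mup-4, from 1.84 to 2.92 on the log2 scale, overlaps that of its neighbour mua-6, from 1.07 to 2.27. Within arrays, mup-4 exceeded mua-6 by 1.54, 0.52 and 0.06 in preps 1, 2 and 3, a mean of 0.71 ± 0.76 (SD, n = 3). Every later pair of neighbours differed in mean by less than the larger SD of the pair.

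The spread of all ratios differed between arrays, which bears on which prep looks highest. The scaled median absolute deviation over all probes was 0.69, 0.77 and 0.39 on arrays 1, 2 and 3. On the log2 scale prep 2 was the highest prep for 6 of the 10 genes and prep 3 for 0. Among all genes called higher these shares were 61.2% and 12%. By rank among all genes on the same array, prep 2 was instead the lowest prep for 6 of the 10. Rank placed 6 of the 10 above the 90th percentile in each prep, against 4.14% of all genes, and these were mup-4, ifa-1, mua-6, ifb-2, ifc-2 and ifp-1. The gene mup-4 lay at percentiles 99.2, 99.1 and 98.6 in preps 1, 2 and 3. In contrast, mua-3 lay at 47.7, 94.4 and 92.9, so its low prep 1 shows on either scale, as does that of mua-6 (91.2, 98.2 and 98.5). By rank vab-10 was also lowest in prep 1 (80.8, 90.6 and 88.4), but its log2 ratios in preps 1 and 3 were close (0.57 and 0.62).

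**Figure D3:**
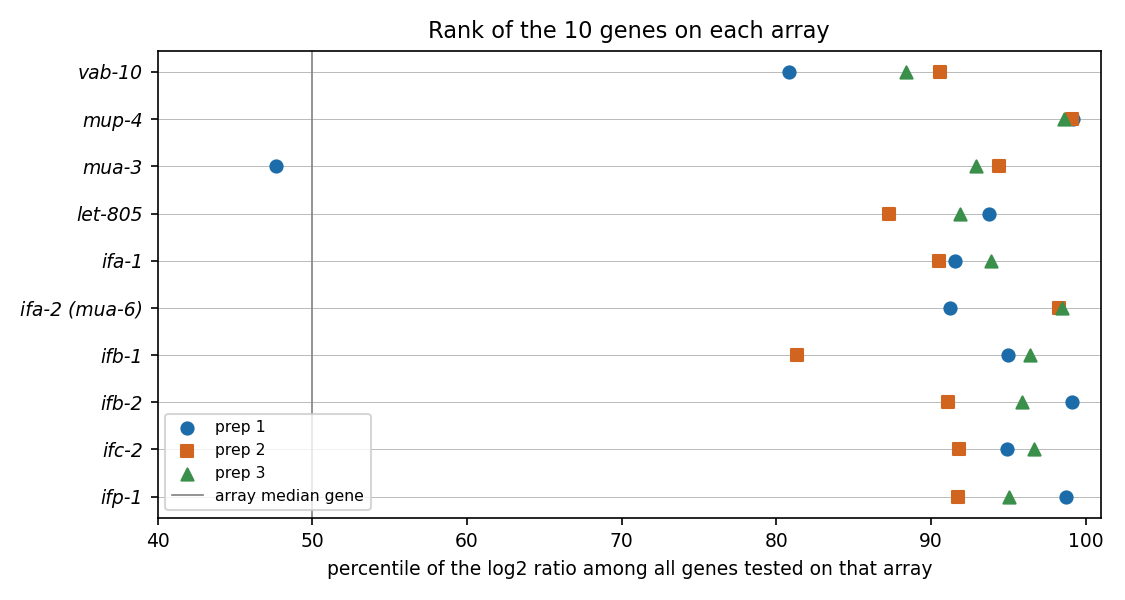
Percentile of the log2 ratio of each of the 10 genes among the 15129 genes tested, with a point for each prep and a line at the median gene. Except for mua-3 in prep 1, at 47.7, every point lies above the 80th percentile.

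By the median of the list, epidermal marker genes were lowest in prep 1, like mua-3 and mua-6, but single markers differed. Of 9 epidermal markers, 2 were higher and 0 lower, with medians of -0.21, 0.76 and 0.83 in preps 1, 2 and 3. For this and the marker lists below, the shares over all genes were 11.4% higher and 11.9% lower. The cuticle collagen gene rol-6 was at 1.07, 2.47 and 2.83 (mean 2.12 ± 0.93, SD, n = 3), and the nuclear receptor gene nhr-25 at 0.76, 1.22 and 0.84, with a limma adjusted p of 0.0681 for nhr-25 without prep 2. Means of the 9 ran between -0.58 and 2.12. The factor gene elt-3 was highest in prep 1 (-0.21, -0.90 and -0.64 in preps 1, 2 and 3). In contrast to the list median, elt-1 was lowest in prep 2 (-0.31, -0.48 and -0.21) and tsp-15 in prep 3 (-0.01, 0.84 and -0.25). The remaining markers were lowest in prep 1. None of elt-1, elt-3 and tsp-15 passed the threshold. Ratios below 0 were recorded in prep 1 for 7 of the markers, while mup-4 and let-805 were at 2.50 and 1.15 there. The part of the epidermal transcript content of each prep in the mua-3 and mua-6 values was not tested.

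Of 8 intestine markers, 5 were higher, 0 lower and 3 did not pass, with medians of 1.39, 1.54 and 1.30 in preps 1, 2 and 3 and means between -0.07 and 2.43. They included the vacuolar ATPase gene vha-6 at 2.43 ± 0.76, the peptide transporter gene pept-1 at 2.30 ± 0.24 and the gut actin gene act-5 at 2.16 ± 0.33 (SD, n = 3 each). The gut transcription factor genes elt-2 and elt-7 were at 0.15 and -0.07 and did not pass (limma adjusted p = 0.670 and 0.836). Between preps, act-5 alone among the 8 markers was highest in prep 1 (2.50, 2.14 and 1.85), as ifb-2 and ifp-1 were. The list medians were highest in prep 2, as was vha-6 (2.75, 2.98 and 1.57), and pept-1 was highest in prep 3 (2.33, 2.05 and 2.52). The part of gut transcript content in the ratios of ifb-2, ifc-2 and ifp-1 was not tested.

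Marker lists for other tissues gave 4 higher and 0 lower of 7 for body wall muscle (medians 1.62, 2.16 and 0.77 in preps 1, 2 and 3), 1 higher and 1 lower of 5 for pharynx, 0 and 0 of 4 for neurons, and 2 higher and 1 lower of 5 for germ line. In muscle, the myosin gene myo-3 was at 2.76 ± 1.12, the alpha-actinin gene atn-1 at 2.26 ± 0.54 and the paramyosin gene unc-15 at 2.26 ± 0.68 (SD, n = 3 each). These are the largest of the 7 muscle means, which ran between 0.19 and 2.76. In the pharynx, the myosin gene myo-1 was at 1.57 ± 0.42 and the troponin C gene tnc-2 at -0.68 ± 0.10, although tnc-2 missed the threshold when any prep was left out (limma adjusted p = 0.0733, 0.127 and 0.156 without preps 1, 2 and 3). The P granule genes glh-1 and pgl-1 were at 2.08 ± 0.42 and 0.89 ± 0.52 and the germ line repressor gene gld-1 at -1.08 ± 0.30, and pgl-1 missed the threshold without prep 1 (limma adjusted p = 0.105) and without prep 2 (0.143). The neuron markers furthest from 0, unc-13 and unc-119, were at -0.36 ± 0.30 and -0.20 ± 0.19.

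The remaining filament genes of the family differed among themselves. Of the 11 cytoplasmic intermediate filament genes, with 1 probe each and 8 of them on X, 9 passed on the higher side (median of the 11, 1.31), 1 passed on the lower side and 1 missed the threshold. The share called higher was 14.6% among X-linked genes and 10.8% among autosomal ones. Outside the 10 genes, ifd-1 and ifd-2, which encode further gut filament chains, were at 2.24, 1.59 and 1.54 and at 1.78, 1.44 and 1.11 in preps 1, 2 and 3, with limma adjusted p = 0.000431 and 0.00127. Like ifb-2 and ifp-1 they were highest in prep 1, so 4 of the 6 gut filament genes were highest there. The share was 31.8% among all genes tested and 26.8% among genes called higher. Outside the gut group, let-805 and ifb-1 were also highest in prep 1. The sixth gut filament gene, ifc-1, was at 0.22, 0.97 and -0.37 and did not pass (limma adjusted p = 0.510). The epidermal chain gene ifa-3 was higher, with a mean of 0.98 ± 0.25 (SD, n = 3), although its limma adjusted p was 0.0612 without prep 2. The gene ifa-4 was the lower one, at -0.64, -1.16 and -0.46 (limma adjusted p = 0.0366), and was chosen for mention after its values were seen. The nuclear lamin gene lmn-1, also chosen after its values were seen, had a mean of 0.12 ± 0.23 (SD, n = 3) and did not pass. Filament genes share sequence, so a probe can bind transcripts of a relative, and single members are uncertain to that extent.

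Other genes that act at fibrous organelles were mostly higher. Of 11 measured, 7 were called higher, 1 lower and 3 did not pass, and the median over the 11 was 0.85. Among all genes tested, 11.4% were called higher and 11.9% lower. The perlecan gene unc-52, which encodes the matrix protein between muscle and epidermis, was at 2.45, 3.22 and 2.21 in preps 1, 2 and 3 (limma adjusted p = 6.60e-05). The gene vab-19, whose ankyrin repeat protein joins fibrous organelles as the embryo elongates, was at 1.47, 1.63 and 1.11 (limma adjusted p = 0.00125), and eps-8 had a mean of 1.08 ± 0.26 (SD, n = 3). The lower member was sta-2, which encodes a STAT-like factor that acts in the epidermal response to damage of these structures, at -0.54, -1.74 and -0.58 (limma adjusted p = 0.0290), named here after its values were seen.

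Of 5 genes listed as organisers of the terminal web under the gut lumen, 4 were higher and 0 lower, with a median of 1.41. Over all genes tested, 11.4% were called higher and 11.9% lower. The 4 included act-5, already counted among the intestine markers above. Among them were also the bublin gene bbln-1 at 1.52 ± 0.37 and the membrane linker gene erm-1 at 1.41 ± 0.18 (SD, n = 3 each). The kinase gene sma-5 was the member that did not pass, with a mean of -0.30 ± 0.44 (SD, n = 3; limma adjusted p = 0.401). Of 4 spectrin and ankyrin genes, the alpha spectrin gene spc-1 was higher at 1.26 ± 0.10 (SD, n = 3; limma adjusted p = 0.00180) and 3 did not pass, among them sma-1 at 0.69 ± 0.59 (SD, n = 3; limma adjusted p = 0.0804).

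**Figure D4:**
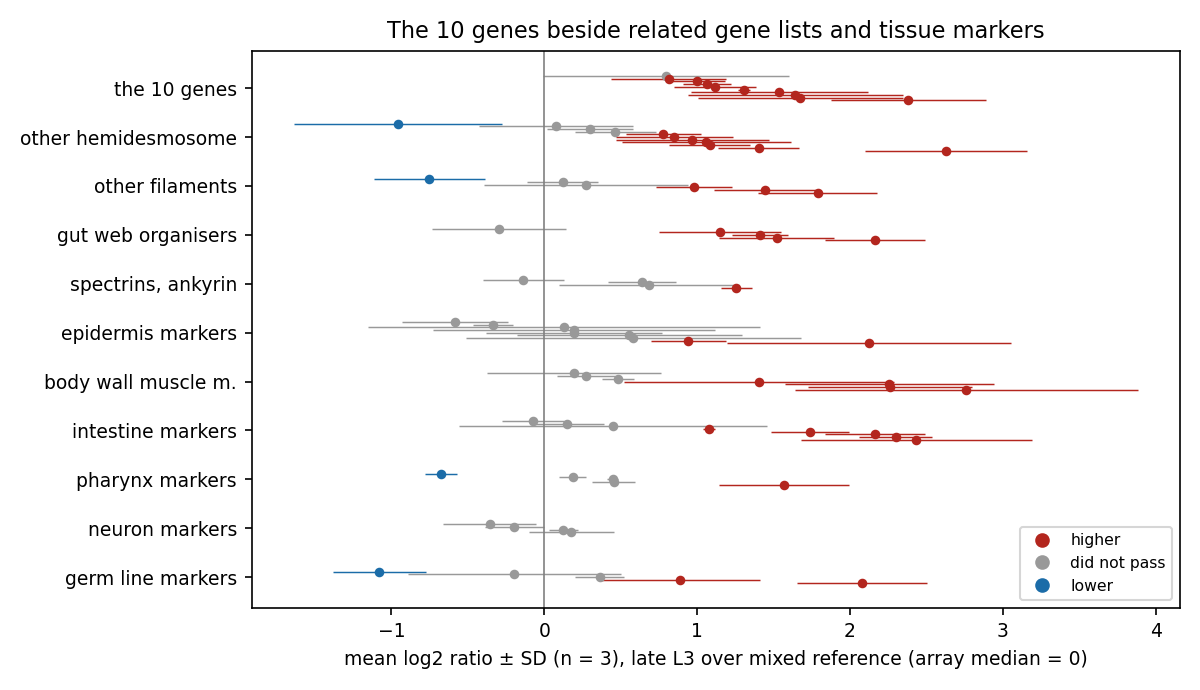
Mean log2 ratio ± SD over 3 preps for each of the 10 genes and for genes of related lists and tissue markers, coloured by the limma call. The 10 genes lie between 0.79 and 2.38, while neuron markers lie between -0.36 and 0.18.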

How the data were processed

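The deposited values are log2 ratios of the 2 channels, in a table of 20000 probes and 3 arrays. The base was read from the values. Not given in the sources used here are how the authors normalized and filtered the spots and which dye and numerator they used. Signal over background could not be examined. Array medians were 0.06, -0.05 and -0.0014 before centring, and arrays correlated at r = 0.692 to 0.753 over all probes. Of 15655 probes assigned to 1 gene, 15569 were renamed through RefSeq gene IDs of WBcel235, 7 by accession, and 79 kept the older name.

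After centring every array on its median and averaging probes that share a symbol, genes with values on 3 arrays were tested for a mean of 0 in R 4.3.3 using limma 3.58.1 (lmFit, eBayes, 2-sided, Benjamini-Hochberg over all 15129 genes, threshold 0.05). The test leaves out the reference's own spread. A simulation of 15129 genes, 200 of them changed, gave 122 calls, 7 of them false, and found 0%, 34%, 96% and 100% of changes of 0.5, 1, 2 and 3 log2 units. In the data, 11.4% of genes were called higher and 11.9% lower, far more than the simulation changed. The adjusted threshold is looser with more changed genes, so these recovery rates do not describe the test of the data. Precision is limited by the number of arrays. The genes and lists were chosen with earlier results of these data known. Named genes are the 10, and of each list up to 3 called genes with the largest absolute mean, or the 2 largest where fewer than 2 passed. The genes elt-1, elt-2, elt-3, elt-7, tsp-15, ifc-1 and sma-5 were added after their values were seen. Plots used Python 3.11.15 and matplotlib 3.10.9. Alternatives changed centring, scaling, identifier trend, missing values, probe averaging, variance model, array weights and preps used.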

Additional observations from a re-analysis of the deposited data

How the results depend on the processing

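The count of 9 higher among the 10 genes stayed between 9 and 10 with no centring, arrays scaled to 1 spread, quantile normalization, a running median in identifier order subtracted, values on at least 2 arrays, robust eBayes and array weights, and between 8 and 10 when single preps were left out. With an ordinary one-sample test on each gene by itself, 0 of the 10 and 0 of all genes in either direction passed, while 7 of the 10 and 3271 of all genes had an unadjusted p under 0.05 there. Leaving out single preps gave 776 to 1748 higher and 1019 to 1541 lower genes, against 1718 and 1805, with the lowest of each without prep 2. The gene mua-3 passed after the identifier trend was subtracted (mean 1.05, limma adjusted p = 0.0286) and without prep 1. The cause of the first was not tested. In the gene-level fit without prep 1, the p-value of each gene followed its mean alone. The pass of mua-3 there does not show that preps 2 and 3 agreed. With the ordinary one-sample test over all 3 preps, mua-3 had an unadjusted p of 0.230. Probes tested alone turned the sign for the second vab-10 probe (-0.12). The ifb-2 minus ifc-2 difference of 0.34 turned to -0.23 with the identifier trend subtracted and to -0.09 without prep 1. No paired analysis was possible because there is 1 group of samples, so that replicate numbers pair nothing between groups. Differences within arrays are given as such. Array values carry no count depth.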
